A study of Mus musculus with 4 samples.

Results

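The genes that responded to 2 h of TGF-b1 in mouse mesenchymal stem cells without functional Snail1 were described from 1 untreated and 1 treated array, that is 2 of the 4 arrays of the study. The response is the log2 RMA value of the treated Snail1-KO array minus that of the untreated Snail1-KO array, for 22180 genes with 1 probe set each. Of these, 13308 had a mean over the 4 arrays of at least 4.51 and were counted. A difference of 1 is 2-fold.

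The cells were mesenchymal stem cells from bone marrow, the adherent stromal cells that can give rise to bone, cartilage and fat. The 4 groups, with 1 array each, were Snail1-WT untreated, Snail1-WT with TGF-b1 for 2 h, Snail1-KO untreated and Snail1-KO with TGF-b1 for 2 h. The labels state no strain, sex, age, dose of TGF-b1, vehicle, or deletion method, nor whether the cells are 1 line or several animals' cells. Because no group has a second array, no difference has a replicate check, no test was made, and whether a difference exceeds the spread between cultures is not known. All genes are therefore described as higher or lower between these arrays. In a whole culture, a change in the share of cells that make an RNA and a change in the RNA per cell cannot be told apart.

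TGF-b1 binds a pair of receptor kinases, which phosphorylate SMAD2 and SMAD3. These join SMAD4, enter the nucleus and act on genes together with other factors such as AP-1. Among the first genes to be transcribed are inhibitors of the pathway itself, genes for matrix and growth factors, and, in many cells, Snai1, which encodes the zinc finger repressor Snail1. In bone marrow stroma the pathway is known for its part in matrix production and in the choice between skeletal fates.

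Snai1 was looked at first as a check of the labels. It measured 6.69 in untreated and 7.63 in treated Snail1-WT cells, and 5.09 and 5.34 in Snail1-KO cells. Both Snail1-KO values lay below both Snail1-WT values, the direction of the labels, and the treated minus untreated difference was 0.25 without Snail1 and 0.94 with it. The sources used here do not give the position of the probes relative to the deleted part. Stromal markers were mostly well detected: 15 of 17 passed the filter, with a median level of 8.62 in untreated Snail1-KO cells, among them Vim at 11.51, Cxcl12 at 10.94 and Pdgfra at 10.72. Nt5e at 4.24 and Thy1 at 5.38, which also serve to define such cells, were near or below the filter level. Ptprc, the pan-leukocyte marker, was at 3.49, and the median level was 4.41 for 13 haematopoietic, 4.34 for 12 endothelial and 4.51 for 15 epithelial markers. Some members were brighter: 4, 5 and 7 passed the filter, in that order. The highest untreated Snail1-KO levels on these lists were 6.59, 5.22 and 8.17. None of the markers on those 3 lists was at least 2-fold apart between the Snail1-KO arrays.

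As a yardstick of error, the disagreement between the responses of the 2 genotypes was used, since they share no array. It was divided by the square root of 2 and taken among the 500 genes nearest in level. Its median absolute deviation, scaled to an SD, gives a noise SD for a difference between 2 arrays. This noise SD also holds any true difference between the genotypes' responses, and it gives little weight to the tails. A shift that both treated minus untreated differences share, whatever its source, cancels and is not part of this SD. By quintile of mean level this SD was 0.223, 0.202, 0.160, 0.119 and 0.0887, from the dimmest genes to the brightest. Over all counted genes the Snail1-KO differences had a median of -0.02 and an ordinary SD of 0.31, or 0.23 when scaled from the median absolute deviation. Set beside this yardstick, the differences past 2-fold were between 4.46 (Snord88a) and 47.9 (Ccn2) times the noise SD at their level, a range that the 2-fold threshold itself sets at its lower end.

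After TGF-b1, 133 of the 13308 genes were at least 2-fold higher in Snail1-KO cells, which is 0.999% of them, and 41 were at least 2-fold lower, or 0.308%. In Snail1-WT cells 95 genes (0.714%) were at least 2-fold higher and 36 (0.271%) lower. The 133 higher genes had a median level of 6.45 before and 8.04 after TGF-b1, and 11 of them started below the filter level of 4.51. The 41 lower genes had a median of 7.18 before and 5.93 after, and 5 of them ended below 4.51. For these dim genes the size of the difference is uncertain, and a gene that is dim on one array passed the filter only through the others. At the threshold, Hhipl1, Lrrk1 and Gpr153 lay just inside at 1.0, and Homer1 at 0.999 and Smurf1 at 0.998 just outside; Cyp4a12b at -1.0 and Tent5a at -1.01 lay just inside, and Zfp946 at -0.99 and Tmem74 at -0.97 just outside.

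The inhibitors of SMAD signalling were higher as a group. Of 15 measured genes on this list, all of which passed the filter, 6 were at least 2-fold higher and 0 lower, beside the 0.999% and 0.308% of all genes, and the list's median difference was 0.88 against -0.02 over all genes. These shares and this median are the background for the counts and medians of every other list. Skil, which encodes the SMAD co-repressor SnoN, measured 5.51 untreated and 8.82 treated in Snail1-KO cells, and 5.65 and 8.27 in Snail1-WT cells. Pmepa1, which encodes a membrane protein that holds receptor SMADs away from the receptor, measured 7.18 and 10.25 without Snail1 and 7.69 and 10.20 with it. The treated arrays of the 2 genotypes were far above both untreated arrays for either gene, and the Snail1-KO differences of 3.31 and 3.06 are 9.95-fold and 8.36-fold. Smad7, an inhibitory SMAD that blocks the type I receptor, measured 5.85 and 7.65 in Snail1-KO cells and 6.37 and 7.89 in Snail1-WT cells. Smad6, the other inhibitory SMAD, measured 5.54 and 7.37 in Snail1-KO cells and 6.11 and 7.25 in Snail1-WT cells. Both started lower without Snail1 and reached nearly the same treated level, with differences of 1.80 and 1.84. Fstl3, a secreted binder of activins, differed by 1.69, and Ldlrad4, a membrane relative of Pmepa1, by 1.33. Below the threshold were the ubiquitin ligase gene Smurf1 at 0.998, the co-repressor gene Ski at 0.88 and Tgif1, another co-repressor, at 0.61. Fst, which encodes the activin binder follistatin, and the pseudoreceptor gene Bambi had differences of only -0.15 and 0.05.

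The promoter of Smad6 is shown because it holds GTCTAGAC, the palindromic SMAD-binding motif, which occurred in the windows of 2 of the 93 higher genes that had a window to search, Smad6 and Fbxw7. The windows run from 250 bases before to 50 bases after a RefSeq start site (build GRCm38.p6), 5′ to 3′ in the direction of transcription, with the palindrome in capitals. That of Smad6 lies at chr9:64022010-64022309 on the minus strand, with the palindrome starting 4 bases before the start site, and one of the windows of Fbxw7 at chr3:84863895-84864194 on the plus strand, with the palindrome starting 42 bases after the start site.
Smad6: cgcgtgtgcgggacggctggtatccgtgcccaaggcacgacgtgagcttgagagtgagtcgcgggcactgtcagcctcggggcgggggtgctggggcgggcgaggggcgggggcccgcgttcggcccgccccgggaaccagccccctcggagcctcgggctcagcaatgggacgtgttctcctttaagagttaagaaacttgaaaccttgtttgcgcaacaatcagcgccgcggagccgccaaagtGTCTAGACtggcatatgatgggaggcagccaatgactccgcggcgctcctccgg
Fbxw7: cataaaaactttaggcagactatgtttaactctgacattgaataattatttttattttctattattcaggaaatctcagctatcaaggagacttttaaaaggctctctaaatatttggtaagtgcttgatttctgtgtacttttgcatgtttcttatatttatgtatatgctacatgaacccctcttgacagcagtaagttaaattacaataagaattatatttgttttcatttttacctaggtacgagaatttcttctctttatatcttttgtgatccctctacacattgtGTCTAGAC
Fbxw7, which encodes the substrate-binding subunit of a ubiquitin ligase, measured 5.86 untreated and 7.49 treated in Snail1-KO cells, and 5.89 and 7.03 in Snail1-WT cells. A match of letters is a description and not evidence that SMADs bound there.

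Among ligands, latency proteins and receptors, 3 of 19 measured genes were at least 2-fold higher and 0 lower, and the median was 0.22. Tgfb3, which encodes another TGF-b ligand, measured 7.79 untreated and 9.58 treated in Snail1-KO cells, against 8.30 and 9.30 in Snail1-WT cells. Its Snail1-KO difference of 1.79 was thus larger than the Snail1-WT difference of 1.0, at a noise SD of 0.08. Tgfb1 and Tgfb2, the genes of the other 2 ligands, had differences of 0.27 and 0.08. Ltbp2, a microfibril protein of the latent TGF-b binding family, differed by 1.28, and Acvr1b, the activin type I receptor gene, by 1.03. The TGF-b receptor genes diverged, with Tgfbr1 measuring 5.67 and 6.39 (difference 0.71) and Tgfbr2 9.28 and 8.89 (-0.39) in Snail1-KO cells. Both differences were nearly the same in Snail1-WT cells, at 0.71 and -0.37. Of 11 SMAD genes and partners, Smad9, of the BMP branch, was higher by 1.18, while Smad2, Smad3 and Smad4 had differences of -0.30, 0.01 and -0.03.

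Genes known as early TGF-b targets made up the list with most members past the threshold. Of 17 measured, 8 were at least 2-fold higher and 0 lower, with a median of 0.99, and 0.83 in Snail1-WT cells. The largest difference of all 13308 genes was that of Ccn2, a secreted matricellular protein long known as connective tissue growth factor, at 6.82 untreated and 10.64 treated in Snail1-KO cells and 7.88 and 10.72 in Snail1-WT cells. The treated levels nearly coincided and the untreated level was lower without Snail1, so the difference was 14.1-fold there and 7.17-fold in Snail1-WT cells. A second, dimmer probe set of Ccn2 gave only 0.35 in Snail1-KO and 1.06 in Snail1-WT cells, so the size of its response rests on the brighter one. The relatives Ccn4, at 8.04 and 10.19, and Ccn1, at 10.51 and 11.95, showed the same form: each started lower in Snail1-KO than in Snail1-WT cells, at 9.10 and 11.44, and ended near the Snail1-WT treated levels of 10.44 and 12.24. Of the 6 measured CCN genes, those 3 were at least 2-fold higher, Ccn5 was at 0.57, and Ccn3 and Ccn6 were at -0.38 and -0.18. Ccn2 and Ccn1 are also targets of YAP and TEAD, whose list of 20 had 2 at least 2-fold higher genes, these same 2, and a median of 0.21. Other early targets were Bhlhe40, a repressor of the clock family (8.03 and 9.71), Klf10, a Kruppel-like factor first found as a TGF-b-inducible gene (6.27 and 7.61), and Junb, an AP-1 subunit (6.61 and 7.95). Their Snail1-WT differences of 1.37, 1.32 and 1.13 were near the Snail1-KO differences of 1.68, 1.33 and 1.33. Not all early targets were higher: Il11 was at 0.73, Lif at 0.55 and Klf11 at -0.11.

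**Figure D1:**
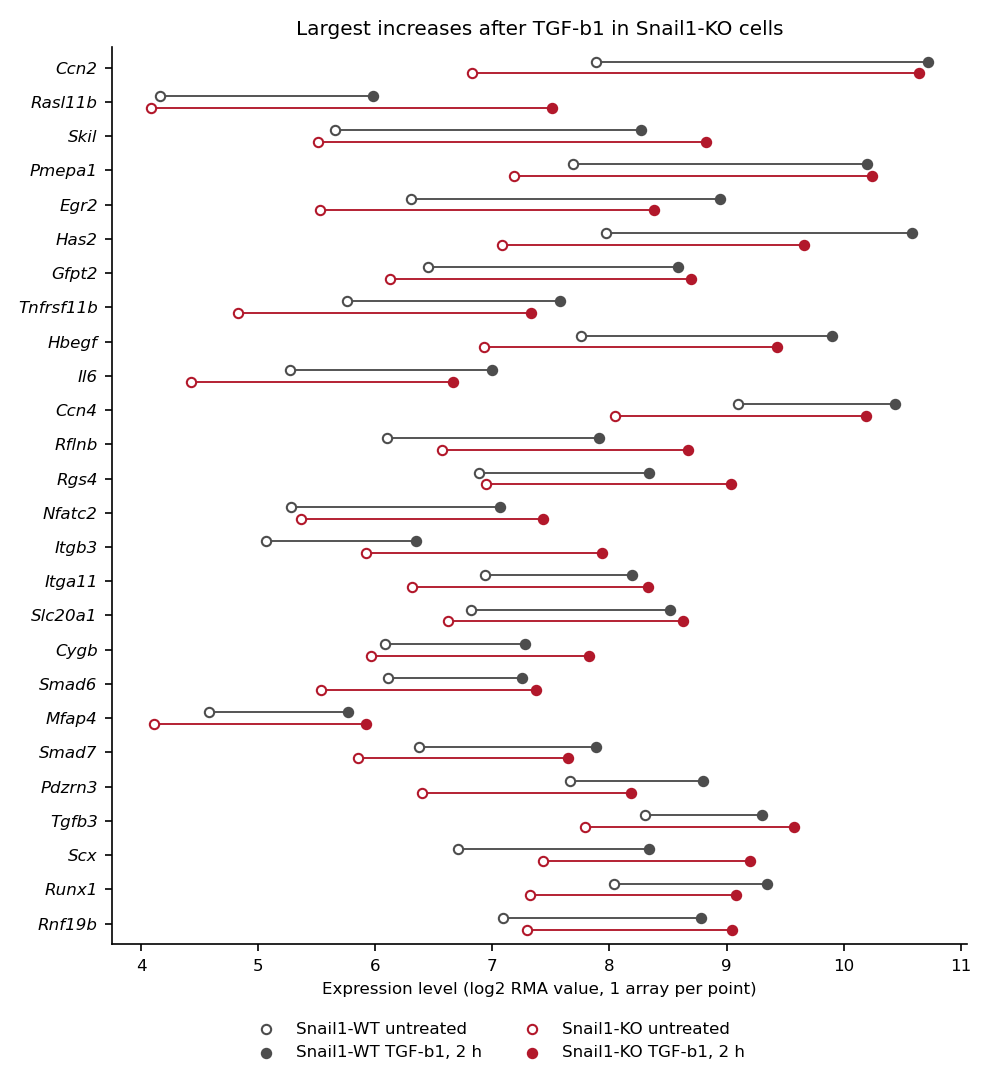
Log2 RMA levels of 26 genes with the largest increases that the naming rule allows, for untreated and TGF-b1-treated arrays of Snail1-KO and Snail1-WT cells, 1 array each; each line joins the untreated and treated array of a genotype. Treated values lie to the right of untreated ones in both genotypes for all genes shown, with Ccn2 spanning 6.82 to 10.64 in Snail1-KO cells.

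The EGR and AP-1 immediate early list had 4 of 21 measured members at least 2-fold higher and 0 lower, with a median of 0.43. Egr2, a zinc finger factor of serum and growth factor responses, measured 5.53 untreated and 8.38 treated in Snail1-KO cells and 6.31 and 8.94 in Snail1-WT cells. Ier3, a stress-induced survival gene, measured 8.37 and 9.89 in Snail1-KO cells. Egr1 stood apart: it was 7.03 and 8.06 in Snail1-KO cells but 8.75 and 8.60 in Snail1-WT cells. The treated Snail1-KO value was thus still below both Snail1-WT values. Fos at 0.53 and Nr4a1 at 0.79 were below the threshold, and Jun, at -0.08, and Atf3, at -0.14, hardly differed. Nfatc2 and Nfatc1, whose products act downstream of calcium and calcineurin, measured 5.36 and 7.43, and 7.50 and 8.91, in Snail1-KO cells. Foxo1, a forkhead factor of growth and stress responses, measured 7.36 and 8.91, with a difference of 1.55 for the probe set used and 0.57 for another. Foxq1 and Foxf2, other forkhead factors, had differences of 1.66 and 1.38.

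Of 23 measured SOX, RUNX and skeletal genes, 12 passed the filter and 6 were at least 2-fold higher, 0 lower, with a median of 0.14 over all 23. The median was 0.80 over the 12 and 1.64 over the members among the 40% of genes with the highest mean. Sox9, the master regulator of cartilage, measured 9.65 untreated and 11.29 treated in Snail1-KO cells and 10.01 and 10.90 in Snail1-WT cells. Scx and Mkx, which are regulators of tendon, measured 7.44 and 9.20, and 6.0 and 7.11, in Snail1-KO cells. Runx1, better known from blood but also used in skeletal cells, measured 7.32 and 9.08. Tnfrsf11b, which encodes osteoprotegerin, a decoy that blocks osteoclast formation, measured 4.82 and 7.33 in Snail1-KO cells and 5.76 and 7.57 in Snail1-WT cells. Sox9 had the larger response in Snail1-KO cells, at 1.64 against 0.88, while Scx at 1.77 against 1.63 and Mkx at 1.11 against 1.18 were nearly equal. Among other members, the cartilage collagen gene Col10a1 and the bone enzyme gene Alpl had differences of 0.18 and 0.07.

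Some genes of growth factors were at least 2-fold higher, while most genes on their lists were not. Hbegf, which encodes a ligand of the EGF receptor, measured 6.93 untreated and 9.43 treated in Snail1-KO cells and 7.76 and 9.90 in Snail1-WT cells. The other members of the EGF list ranged from Btc at -0.41 to Lrig3, an inhibitory membrane protein, at 1.21, and the median of the 12 genes was 0.03. In the PDGF, FGF, VEGF and HGF list, 3 of 36 measured genes were at least 2-fold higher and 1 lower, with a median of 0.14. The higher ones were Fgf18, a signal for cartilage and bone (5.66 and 7.0 in Snail1-KO cells), Pdgfc, a mitogen of mesenchymal cells (8.12 and 9.45), and Vegfa, the main angiogenic factor (8.73 and 9.96). Vegfa was among those with a smaller difference without Snail1, at 1.23 against 1.53. Fgf2, at 0.77, and Pdgfb, at 0.52, passed 2-fold only in Snail1-WT cells, at 1.41 and 1.17, and whether the responses of these genes differ between the genotypes was not tested. Angptl4, a regulator of lipoprotein lipase, was the lower gene, at 6.57 and 5.54.

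Il6, the proinflammatory cytokine gene, measured 4.43 untreated and 6.67 treated in Snail1-KO cells and 5.27 and 7.0 in Snail1-WT cells. The untreated Snail1-KO value lay just below the filter level, so the 4.72-fold difference is uncertain in size. It was the only 1 of 15 measured genes of the IL-6 family and SOCS list past 2-fold, and the list's median was 0.24. Cish, a feedback inhibitor of cytokine receptors, followed at 0.95. Chemokines and NF-kB targets had 0 of 26 past 2-fold in either direction, with Tnfaip3, an inhibitor of NF-kB, at 0.91 and the neutrophil attractant genes Cxcl5 and Cxcl1 at -0.89 and -0.73. Ptgs2, the inducible enzyme of prostaglandin synthesis, measured 9.96 and 11.13 in Snail1-KO cells and was the only 1 of 11 prostaglandin E2 genes past 2-fold. Edn1, which encodes the vasoconstrictor endothelin, measured 5.74 and 7.11, and Avpr1a, a vasopressin receptor gene, 4.89 and 6.27, against 5.94 and 7.90 in Snail1-WT cells. Avpr1a had a lower level without Snail1 on both arrays and a smaller difference, 1.38 against 1.97.

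Hyaluronan synthesis was represented at more than 1 step. Of 17 measured genes of the hyaluronan and hexosamine list, 3 were at least 2-fold higher and 0 lower, with a median of 0.13. Has2, the main hyaluronan synthase of mesenchymal cells, measured 7.08 untreated and 9.67 treated in Snail1-KO cells and 7.97 and 10.58 in Snail1-WT cells. Both arrays without Snail1 were below their Snail1-WT counterparts, and the differences of 2.58 and 2.61 were practically equal. Gfpt2, which controls entry into the hexosamine pathway that supplies hyaluronan's sugars, measured 6.12 and 8.70 in Snail1-KO cells and 6.45 and 8.59 in Snail1-WT cells. Cemip2, a membrane protein linked to hyaluronan breakdown, measured 7.18 and 8.50. Its relative Cemip went the other way at -0.59, and Has1 was at 0.63.

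The promoters of Il6 and Gfpt2 are shown because they held an AP-1 motif, as the only ones of the 5 genes among the 12 largest increases that had a window to search, and that of Il6 also holds a SMAD box; these 2 were chosen after the motifs were known. Capitals mark the AP-1 motif TGANTCA and the SMAD box CAGACA on either strand. The window of Il6 is chr5:30012864-30013163 on the plus strand of GRCm38.p6, with the AP-1 motif starting 249 bases before and the SMAD box 17 bases after the start site. The window of Gfpt2 is chr11:49793905-49794204 on the plus strand, with the AP-1 motif starting 223 bases before the start site.
Il6: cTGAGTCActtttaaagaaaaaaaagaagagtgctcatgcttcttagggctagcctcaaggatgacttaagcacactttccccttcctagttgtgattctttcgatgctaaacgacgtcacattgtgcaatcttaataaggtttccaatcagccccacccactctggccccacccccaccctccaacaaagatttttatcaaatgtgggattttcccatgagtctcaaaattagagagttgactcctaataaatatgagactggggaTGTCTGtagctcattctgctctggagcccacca
Gfpt2: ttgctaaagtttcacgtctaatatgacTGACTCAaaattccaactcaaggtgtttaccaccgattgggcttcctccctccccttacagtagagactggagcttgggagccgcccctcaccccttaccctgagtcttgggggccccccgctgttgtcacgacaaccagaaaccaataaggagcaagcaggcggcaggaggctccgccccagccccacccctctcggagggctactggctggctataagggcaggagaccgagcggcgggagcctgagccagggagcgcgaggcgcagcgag
AP-1 motifs were in 4.80% of the windows of higher genes and 5.32% of those of all counted genes.

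Single integrin and microfibril genes were at least 2-fold higher, while most genes of these lists were not. Of 23 measured integrin and laminin genes, 3 were at least 2-fold higher and 0 lower, with a median of 0.07. Itgb3, a partner in the vitronectin receptor that can activate latent TGF-b, measured 5.92 untreated and 7.93 treated in Snail1-KO cells and 5.07 and 6.35 in Snail1-WT cells. Itga11, a collagen receptor subunit, measured 6.31 and 8.33 in Snail1-KO cells, and Itga5, of the fibronectin receptor, 9.64 and 10.80. Itgb1, the common partner of many integrins, measured 10.23 and 10.31. Among 24 elastic fibre and provisional matrix genes 3 were at least 2-fold higher and 0 lower, with a median of 0.28. Of the 24, 22 had differences above 0, beside 10315 of all 22180 genes. Mfap4, a microfibril-associated protein, measured 4.11 and 5.92 in Snail1-KO cells and 4.58 and 5.77 in Snail1-WT cells. Adamtsl2, a microfibril protein that affects the supply of TGF-b, measured 5.34 and 7.05 against 5.18 and 5.93. Starting at almost the same level, Adamtsl2 was thus 3.25-fold higher without Snail1, and its difference with Snail1 was 0.75. Thbs1, an activator of latent TGF-b, and Tnc, tenascin C, reached 0.76 and 0.78, and Fn1, fibronectin, 0.20. Of 28 collagen and collagen-modifying genes only Plod2, a lysyl hydroxylase, was at least 2-fold higher, at 1.12, although 24 of the 28 were above 0, with a median of 0.18. Col1a1 measured 12.09 and 12.23.

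The contractile genes showed the same small shift. Their median was 0.19 over 29 genes, of which only Rflnb was at least 2-fold higher. Differences were above 0 for 23 of the 29, beside 10315 of all 22180 genes. Rflnb, whose product binds filamin and organises actin, measured 6.57 and 8.67 in Snail1-KO cells and 6.10 and 7.91 in Snail1-WT cells. Acta2, the smooth muscle actin gene of myofibroblasts, measured 11.70 and 11.84, and Tagln had a difference of 0.36. Matrix proteases went both ways: Adamts6 was at 7.29 and 8.81 and Timp3, an inhibitor of metalloproteinases, at 10.13 and 11.21, whereas Adamts1, which cleaves the proteoglycan versican, was at 8.54 and 6.79 and Adamts5, an aggrecan-cleaving enzyme, at 9.67 and 8.80.

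Regulators of small GTPases and G protein signalling also moved in both directions. Rasl11b, a RAS-like protein, had the second largest increase, at 4.08 untreated and 7.51 treated in Snail1-KO cells against 4.16 and 5.98 in Snail1-WT cells. Both untreated arrays were below the filter level, so the 10.8-fold difference is uncertain in size, but the treated Snail1-KO array stood well above the treated Snail1-WT array. Its relative Rasl11a was lower, at 6.96 and 5.65. Rgs4 and Rgs2, which both shorten G protein signals, diverged: Rgs4 measured 6.95 and 9.03 and Rgs2 6.98 and 5.60 in Snail1-KO cells. For Rgs2 another probe set, with a mean of 3.04 and so below the filter level, gave -0.30 in place of -1.37. The list of 31 held 2 higher and 3 lower genes past 2-fold and had a median of -0.07, or 0.19 over the 40% of genes with the highest mean. Other named increases were Slc20a1, a phosphate transporter gene (6.62 and 8.62), Cygb, which encodes the oxygen-binding protein cytoglobin (5.96 and 7.83), and Unc5b, a netrin receptor gene (7.16 and 8.86). Gadd45b, a stress gene that activates p38 signalling, measured 8.70 and 10.32 in Snail1-KO cells and 9.14 and 10.02 in Snail1-WT cells. It was the only 1 of 22 cytostatic genes past 2-fold, and the cell cycle inhibitor genes Cdkn1a and Cdkn2b had differences of 0.02 and -0.07.

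Other genes of the 50 largest increases belong to no such list. Rnf19b, a ubiquitin ligase gene, measured 7.29 untreated and 9.04 treated in Snail1-KO cells and 7.09 and 8.78 in Snail1-WT cells. Ppp1r13l, which encodes an inhibitor of p53, measured 5.63 and 7.38, and Itpkb, an inositol trisphosphate kinase gene, 6.97 and 8.66 without Snail1. The Snail1-WT differences of these 3, at 1.70, 1.45 and 1.44, were close to the Snail1-KO differences of 1.75, 1.74 and 1.69. Zfp469, a zinc finger gene known from corneal disease, had one of the smaller ratios, at 1.64 without and 1.82 with Snail1. Garre1, which encodes an effector of RAC1, measured 7.42 and 8.85. Tll1, a protease of the tolloid family that processes procollagen, measured 3.84 and 5.32 without and 4.62 and 6.18 with Snail1, so its untreated Snail1-KO level was below the filter level. Cpeb2, a regulator of translation, differed by 1.43 without and 0.73 with Snail1. From the dimmest to the brightest quintile, 10, 20, 32, 38 and 33 genes were at least 2-fold higher and 5, 8, 14, 8 and 6 lower. Of these, 3, 5, 17, 25 and 18 were higher and 1, 3, 5, 7 and 4 lower in both genotypes.

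**Figure D2:**
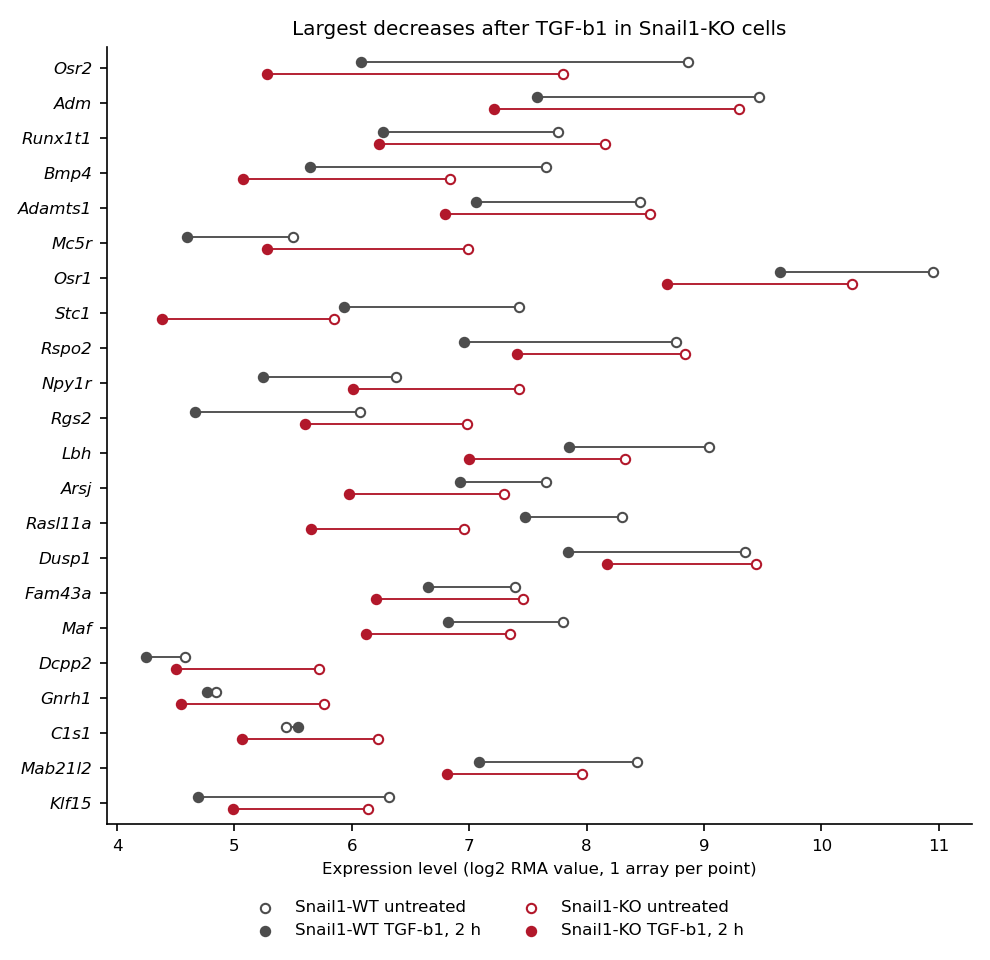
Log2 RMA levels of 22 genes with the largest decreases that the naming rule allows, for untreated and TGF-b1-treated arrays of Snail1-KO and Snail1-WT cells, 1 array each; each line joins the untreated and treated array of a genotype. Osr2 spans 7.79 to 5.27 in Snail1-KO cells and 8.86 to 6.08 in Snail1-WT cells.

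The decreases were led by regulators of mesenchymal patterning. Of 36 measured patterning factors 5 were at least 2-fold lower, beside 0.308% of all genes, and 2 were higher, with a median of 0.05. Osr2, an odd-skipped zinc finger factor of limb, palate and joint development, measured 7.79 untreated and 5.27 treated in Snail1-KO cells and 8.86 and 6.08 in Snail1-WT cells. Its paralog Osr1 measured 10.26 and 8.68 in Snail1-KO cells and 10.95 and 9.65 in Snail1-WT cells. For both, each Snail1-KO value was below its Snail1-WT counterpart, and the difference of Osr2 was a 5.74-fold decrease. Runx1t1, a co-repressor, measured 8.15 and 6.23 in Snail1-KO cells, Lbh, a regulator of limb bud and heart, 8.32 and 7.0, and Mab21l2, a gene of eye and body wall development, 7.96 and 6.81. Hox genes had 0 of 27 past 2-fold, which is near the share of all genes. Their median was -0.10, and the lowest were Hoxa3 at -0.87 and Hoxa9 at -0.82.

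Of the BMP, WNT and Notch lists 1 of 25, 1 of 44 and 0 of 16 genes were past 2-fold. Among all genes 0.308% were lower and 0.999% higher. Bmp4, a bone morphogenetic protein gene, measured 6.84 untreated and 5.07 treated in Snail1-KO cells and 7.65 and 5.64 in Snail1-WT cells. It was the only 1 of 25 BMP and ID genes past 2-fold, and the ID genes, which are targets of BMP signals, did not move in 1 direction: Id1, Id2 and Id3 had differences of -0.01, 0.48 and -0.11, where Snail1-WT cells had -0.64, -0.73 and -0.50. Rspo2, an enhancer of WNT signals, measured 8.84 and 7.40 in Snail1-KO cells and 8.76 and 6.96 in Snail1-WT cells, and its relative Rspo3 differed by -0.71. These were the largest decreases of 44 WNT genes, whose median was -0.02 and of which Wnt9a was highest at 0.97. No gene of the 16 in the Notch list was past 2-fold, with the ligand gene Jag1 at 0.79. Kitl, stem cell factor, by which stroma supports blood stem cells, measured 8.62 and 7.59, and Gas1, a co-receptor of hedgehog, 9.84 and 8.81.

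Vasoactive and peptide hormone genes held 4 decreases and 2 increases past 2-fold among 37, beside 0.308% lower and 0.999% higher among all genes. Adm, which encodes the vasodilator adrenomedullin, measured 9.30 untreated and 7.21 treated in Snail1-KO cells and 9.47 and 7.58 in Snail1-WT cells, a 4.26-fold decrease without Snail1. Stc1, the calcium-regulating hormone stanniocalcin, measured 5.85 and 4.38 against 7.42 and 5.94, so its treated Snail1-KO value was below the filter level. Mc5r and Npy1r, which encode receptors for melanocortins and neuropeptide Y, measured 6.99 and 5.28, and 7.42 and 6.01, in Snail1-KO cells. Mc5r started higher than in Snail1-WT cells, at 5.50, and its difference of -1.71 was larger than the Snail1-WT value of -0.90. Further receptor genes among the 35 largest decreases were S1pr1 for sphingosine phosphate at -1.11, Mrgprf at -1.07 and Lpar4 for lysophosphatidic acid at -1.04. Adm and Vegfa are both hypoxia targets and lay on opposite sides of 0, and that list of 15 had a median of -0.01.

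Feedback regulators of MAP kinases and Kruppel-like factors were split as well. Dusp1, a phosphatase of stress kinases, measured 9.44 untreated and 8.18 treated in Snail1-KO cells and 9.35 and 7.84 in Snail1-WT cells. Dusp4, a nuclear phosphatase of ERK, went the other way, at 5.80 and 6.96 against 7.23 and 8.23, and Dusp5 and Dusp6 were at 0.97 and 0.76. Klf15, a metabolic regulator, measured 6.14 and 4.99 in Snail1-KO cells and 6.31 and 4.69 in Snail1-WT cells, and Klf3 differed by -0.77, while Klf10 was higher as described. Txnip, an inhibitor of glucose uptake and thioredoxin, measured 8.79 and 7.70, and Arid5b, a chromatin regulator of adipogenesis and chondrogenesis, 10.13 and 9.06. Kcnj2, a potassium channel gene, measured 6.99 and 5.92, and Ppm1k, a phosphatase of branched-chain amino acid breakdown, 5.71 and 4.63. Both were close to their Snail1-WT differences, at -1.08 against -1.28 for Kcnj2 and -1.08 against -1.12 for Ppm1k. Maf, a bZIP factor, was at -1.22 by the probe set used and -0.69 by another.

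The promoter of Kitl is shown as the one decrease among stromal markers, chosen after the motifs were known, because its window, chr10:100015571-100015870 on the plus strand of GRCm38.p6, holds the SMAD box CAGACA on either strand at 2 places, starting 192 bases before and 17 bases after the start site, in capitals.
Kitl: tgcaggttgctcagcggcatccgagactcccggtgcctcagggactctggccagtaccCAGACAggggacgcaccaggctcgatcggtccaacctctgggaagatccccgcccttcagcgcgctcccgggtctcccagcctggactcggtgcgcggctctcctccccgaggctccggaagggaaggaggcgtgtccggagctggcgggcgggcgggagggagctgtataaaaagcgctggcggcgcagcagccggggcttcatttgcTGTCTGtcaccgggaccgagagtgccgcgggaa
Among the promoter windows of all counted genes, 16.7% held a SMAD box.

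Motifs were searched on both strands in the RefSeq windows, which were found for 93 of the 133 higher genes (125 windows) and 29 of the 41 lower genes (34 windows). Shares of windows are given for higher genes, lower genes and all counted genes in that order. GTCTAGAC was in 1.6% (2 windows), 0 and 0.244%, and in 0.213% of all windows on the table. The SMAD box CAGACA was in 21.6%, 17.6% and 16.7%, and in 21.0% of all windows on the table. Its share in higher genes was thus above that of all counted genes and near that of all windows. For the AP-1 motif TGANTCA the shares were 4.80%, 5.88% and 5.32%, and for the TEAD motif CATTCC 14.4%, 8.82% and 12.3%. The Snail E-box CAGGTG was in 20%, 11.8% and 18.5%, the EGR motif GCGGGGGCG in 4.80%, 8.82% and 5.33%, and the CRE motif TGACGTCA in 1.6%, 2.94% and 2.92%. The hypoxia response core ACGTG was in 24.8%, 17.6% and 24.9%, and the GC-rich motif GGCGCC in 23.2%, 20.6% and 20.2%. Over all windows on the table the shares were 7.81% for AP-1, 14.7% for TEAD, 20.2% for the Snail E-box and 2.91% for EGR. They were 1.79% for the CRE, 19.6% for the hypoxia core and 11.9% for the GC-rich motif. With so few windows, the shares of higher and lower genes were not tested against the rest. These are descriptions of a 300-base window, which leaves distal enhancers out, and several windows can belong to 1 gene.

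Of the clock genes 3 of 17 measured were at least 2-fold higher and 0 lower, with a median of -0.05. The activator gene Arntl measured 8.50 untreated and 9.53 treated in Snail1-KO cells, and the repressor genes Bhlhe40 and Bhlhe41 had differences of 1.68 and 1.07, whereas Per1, Nr1d1 and Dbp, whose transcription the activators drive, had -0.78, -0.84 and -0.77. EMT transcription factors, the class to which Snail1 belongs, had 0 of 7 past 2-fold. Snai2, the closest relative of Snai1, measured 10.66 and 9.79 in Snail1-KO cells and 10.27 and 9.14 in Snail1-WT cells, and Twist1 differed by -0.55. Twist2, at 0.47, and Zeb1, at 0.15, did not move with them, and Snai1 itself did not pass 2-fold in either genotype.

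Several programs had no gene past 2-fold or a median near that of all genes. Insulin-like growth factor genes, unfolded protein response genes, cholesterol synthesis genes, interferon-response genes and housekeeping genes had 0 members past 2-fold in either direction. Their medians lay between -0.17 for interferon-response and 0.17 for cholesterol synthesis genes, and Ifit2, at -0.95, and Ddit3, at -0.77, were the members farthest from 0. Small leucine-rich proteoglycans also had 0 of 14, with Fmod, fibromodulin, at 0.95. Of the adipogenic genes Cebpa, at 5.28 and 6.34, was higher and Gas1 lower, and Pparg, the main adipogenic regulator, was at 0.10. Of the 174 genes past 2-fold in Snail1-KO cells, 76 were on at least 1 of the lists, and a gene can be on several of them.

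**Figure D3:**
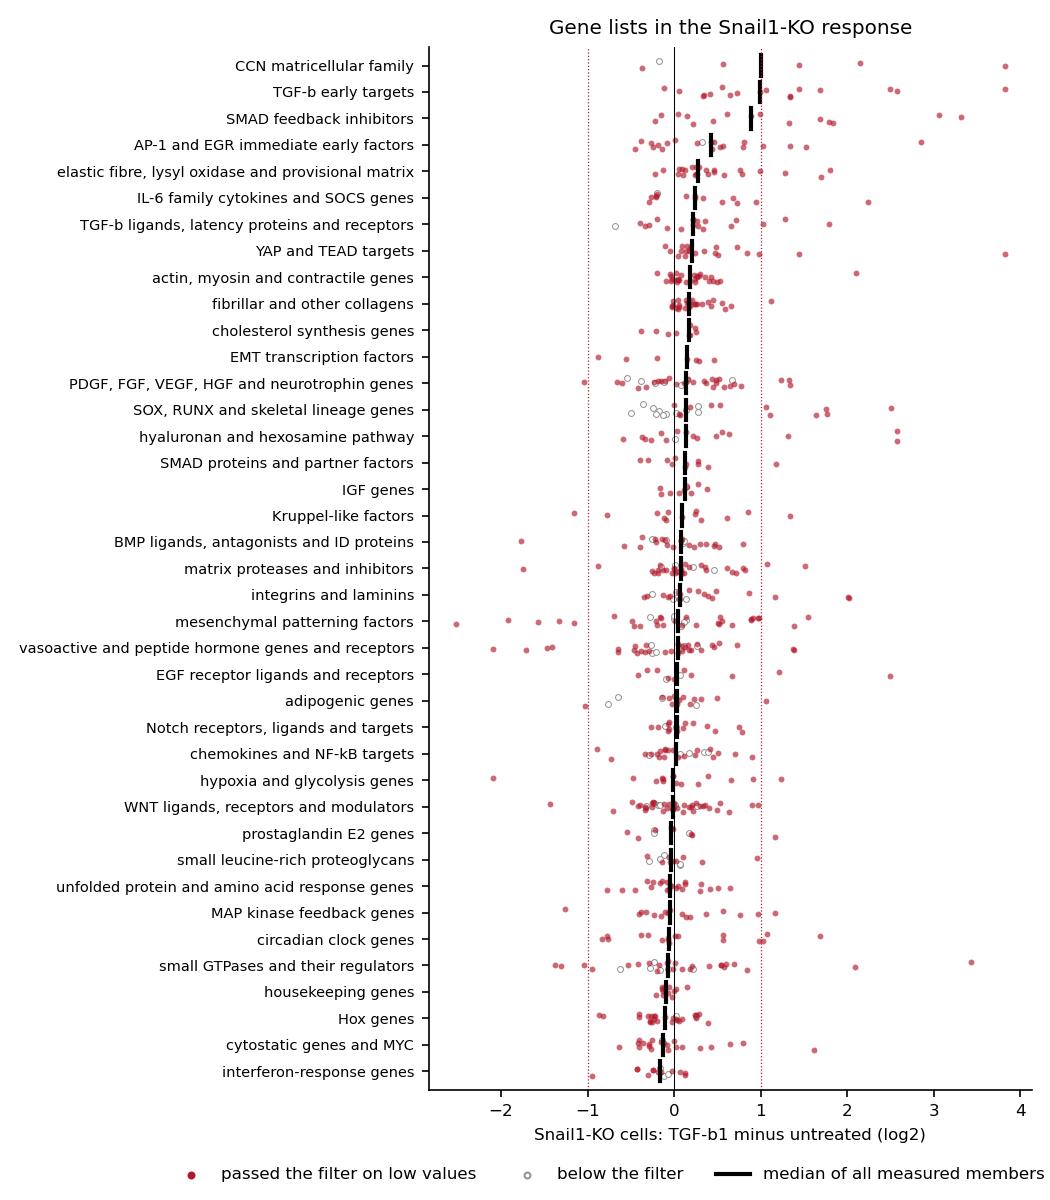
Differences of the members of 39 gene lists in Snail1-KO cells (log2, TGF-b1 minus untreated), with 1 point per measured gene and the median of each list marked; a gene can be on several lists, points are spread vertically within a list, open points are genes below the filter, and dotted lines mark 2-fold. SMAD feedback inhibitors (median 0.88) and early targets (0.99) lie to the right of the all-gene median of -0.02.

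The 2 genotypes' responses were then set side by side for the genes chosen on one of them. Of the 133 higher genes of Snail1-KO cells, 68 were also at least 2-fold higher in Snail1-WT cells, which is 51.1% of the Snail1-KO list and 71.6% of the 95 genes of the Snail1-WT list. Of the 41 lower genes 20 were shared, 48.8% and 55.6% of the 2 lists. In addition 131 of the 133 (98.5%) had the same sign in Snail1-WT cells and 112 were at least 1.5-fold higher there. The sign was also shared by 37 of the 41 (90.2%), against 67.5% of all counted genes. Among all counted genes, as given, 0.714% and 0.271% were past 2-fold in Snail1-WT cells.

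The sizes of the responses were compared for genes chosen in different ways. The 133 genes had a median of 1.28 in Snail1-KO and 1.01 in Snail1-WT cells, and 118 were larger in Snail1-KO cells, but they were chosen on the Snail1-KO value, which favours it. For the 95 genes chosen in Snail1-WT cells, the median was 1.33 in Snail1-KO and 1.28 in Snail1-WT cells, and 53 of the 95 were larger in Snail1-KO cells. At a 1.5-fold threshold these were 158 of 330, with medians of 0.81 and 0.82, so which is larger depended on the threshold. Of the 68 genes shared by both lists, the median level was 6.72 before and 8.43 after TGF-b1 in Snail1-KO cells and 6.88 and 8.37 in Snail1-WT cells. Without Snail1, 46 of the 68 started lower and 36 ended lower, against 6659 and 6704 of all 13308 counted genes. The median difference of the 68 was 1.62 in Snail1-KO and 1.36 in Snail1-WT cells, with 53 of them larger in Snail1-KO cells. The untreated Snail1-KO array enters both the starting level and the difference, so a lower start and a larger difference are linked in advance. For decreases the 36 genes chosen in Snail1-WT cells had medians of -1.03 in Snail1-KO and -1.22 in Snail1-WT cells, with 6 larger in Snail1-KO cells. They were chosen on the Snail1-WT value, which favours it. The 41 genes chosen in Snail1-KO cells had medians of -1.16 in Snail1-KO and -0.98 in Snail1-WT cells, with 27 larger in Snail1-KO cells. The 20 shared decreases had median levels of 8.06 before and 6.80 after TGF-b1 in Snail1-KO cells, and 8.18 and 6.79 in Snail1-WT cells. Their median difference was -1.35 in Snail1-KO and -1.37 in Snail1-WT cells, with 6 of the 20 larger in Snail1-KO cells.

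**Figure D4:**
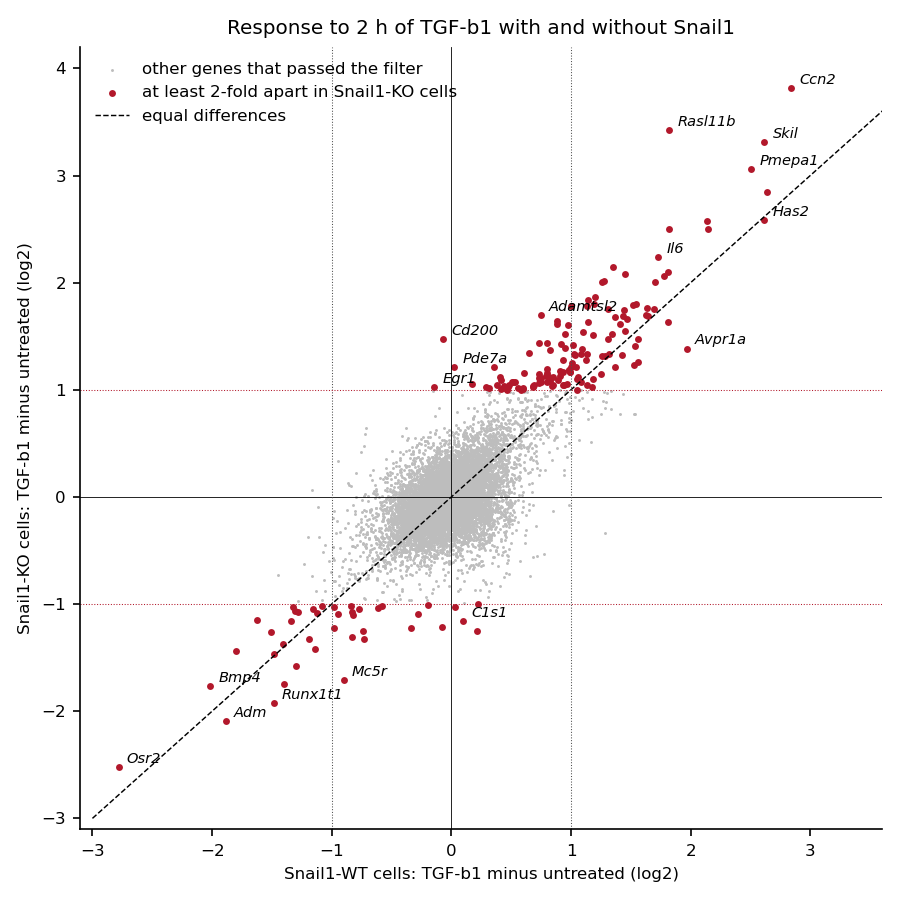
Response to TGF-b1 of the counted genes in Snail1-WT cells (horizontal) and Snail1-KO cells (vertical), log2 differences of 1 array each, with genes at least 2-fold higher or lower in Snail1-KO cells marked and some named, the dashed line marking equal differences and the dotted lines 2-fold. Of the 133 increases, 131 lie to the right of 0 on the Snail1-WT axis; Cd200, Egr1 and C1s1 lie near 0 on the Snail1-WT axis.

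Genes past 2-fold in Snail1-KO cells and under 1.25-fold in that direction in Snail1-WT cells numbered 13, named here after their values were seen. The 7 lower ones were Gnrh1, the complement protease gene C1s1, Il15ra, H2ac1, Tent5a, Cyp4a12b and the predicted gene Gm2046, and their untreated Snail1-KO levels lay at or below 6.80. Cd200, a membrane protein that restrains immune cells, was one of the 6 higher, at 4.37 untreated and 5.85 treated in Snail1-KO cells and 4.02 and 3.95 in Snail1-WT cells. Of these levels all but the treated Snail1-KO one were below the filter level. Cebpa, a regulator of fat cells, measured 5.28 and 6.34 without Snail1 and 5.94 and 6.12 with it. Pde7a, a phosphodiesterase gene, measured 6.25 and 7.46 against 6.86 and 6.88, and another probe set of it gave 0.59. Egr1, Pcdh7 and Unc93a made up the 6. For all of the 6 but Cd200 the untreated Snail1-KO array was the lowest of the 4, and whether the 2 responses differ was not tested.

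The response was also compared between probe sets of 1 gene. Of the 174 genes, 15 had a further probe set, of which 12 had the same sign and 2, those of Garre1 at 1.38 and Sox4 at 1.03, were again past 2-fold. Of the 10 further probe sets at or above the filter level, 8 had the same sign. The 3 with the opposite sign were those of C1s1 at 0.18 against -1.16, Hhipl1 at -0.05 against 1.0 and Tcim at -0.19 against 1.07. Those of Mtus1 and Tbc1d1 gave 0.18 and 0.06, against 1.52 and 1.07, and were, like that of Tcim, below the filter level. Levels of both genotypes were taken from the same probe set throughout.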

How the data were processed

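The authors deposited 1 table of log2 values for 41345 probe sets on 4 arrays (Affymetrix, biotin-labelled total RNA, per the labels), and the submitters' processing notes name RMA and R 3.1.1 for them. RMA equalises the distributions of the arrays, so a shift of most genes in 1 direction would be removed. Array medians were 4.58 to 4.63. The authors' annotation and build are not stated in the sources used here. With 1 array in each group, the number of arrays limits the precision.

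Groups came from the sample titles. Gene symbols came from the platform annotation: 23521 probe sets had 1 symbol, 1814 several and 16010 were not named here. The probe set with the highest mean stands for its gene, and the brightest 60% of genes were kept. Counts are of genes whose log2 values differed by 1 or more. Gene lists are described by counts and by the median over all measured members. Of 893 symbols on 44 lists, 829 were measured and 713 passed the filter. Only the counting of genes past 2-fold was tried on simulated data. The added shifts were well past the threshold and the simulated noise was below that of the dimmer genes. The other steps were not tried in this way. Python 3.11.15, pandas 2.3.3, numpy 2.4.6, matplotlib 3.10.9 and, for cyclic loess, limma 3.58.1 in R 4.3.3 were used.

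Named genes are Snai1, the 50 largest increases and 35 largest decreases past 2-fold, all list members past 2-fold, and up to 6 members per list with the largest difference or highest level. Symbols of predicted models, small RNA, chemosensory receptors, ribosomal pseudogenes and antigen receptor segments were counted but not named under this rule. Genes at the threshold, with a smaller response in the other genotype, or shown for a promoter were added after their values were seen, as were further list members beyond 6. The question, the lists and the motifs were chosen with earlier results of these data known. Promoter windows came from RefSeq, build GRCm38.p6. Values were recomputed with a threshold of 1.5-fold, without the filter, with the brightest 40% of genes, after centring or cyclic loess, and from the mean of a gene's probe sets.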

Additional observations from a re-analysis of the deposited data

Results flagged for a closer look

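For some genes and lists the 2 genotypes' responses had opposite signs, with 1 array per group, and the difference between the responses was not tested. For C1s1, Cd200, H2ac1 and H4c17 the smaller of the 2 differences was within the noise SD, so its sign is uncertain. C1s1, a complement protease gene, differed by -1.16 after TGF-b1 in Snail1-KO cells and by 0.0975 in Snail1-WT cells. Its other probe set, nearly as bright, gave 0.18 in Snail1-KO and -0.37 in Snail1-WT cells. Cd200, a membrane protein gene, differed by 1.48 and -0.0717, and the immediate early gene Egr1 by 1.03 and -0.14, in that order. The histone gene H2ac1 differed by -1.03 in Snail1-KO and 0.0295 in Snail1-WT cells. H4c17, another histone gene, passed 2-fold only in Snail1-WT cells, with 0.0695 in Snail1-KO cells and -1.17 in Snail1-WT cells, as did Spin2d, with -0.34 and 1.28.

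Among the lists, the median of the EMT transcription factors was 0.15 in Snail1-KO and -0.33 in Snail1-WT cells, and that of the haematopoietic markers was -0.16 and 0.16. Of the 13 haematopoietic markers measured, only 4 were bright enough to be counted, and the medians of those 4 were both below 0, at -0.33 and -0.0838. The Snail1-KO median of the EMT factors was -0.0249 over the 40% of genes with the highest mean.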

How the results depend on the processing

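At a 1.5-fold threshold, the Snail1-KO response had 441 higher and 243 lower genes, of which 243 and 92 were so in both genotypes. Without the filter the counts past 2-fold were 151 higher and 52 lower, and with the 40% of genes of highest mean 115 and 30. Centring each array on its median gave 138 and 39, cyclic loess 136 and 37, and the mean of all probe sets 128 and 37. Increases made up 76.4% of the genes past 2-fold, 78.0% after centring and 78.6% after loess. Over the 40% of genes of highest mean, list medians became 1.33 for early targets, 1.44 for CCN genes, -0.0249 for EMT factors, -0.12 for patterning factors, 0.20 for EGF genes, 0.35 for integrins and laminins, 0.19 for small GTPases, 1.64 for skeletal genes, -0.33 for haematopoietic and 0.10 for epithelial markers. Over the members that passed the 60% filter, an alternative added after the data were seen, they were 1.44 for CCN genes, 0.80 for skeletal genes, -0.33 for haematopoietic and 0.0629 for epithelial markers. Of 111 named genes, all kept their value within the noise SD under centring and loess. For centring this was fixed in advance, since it adds the same small amount, below any noise SD, to every Snail1-KO difference. Under the mean of probe sets 8 moved by more, including Ccn2 to 2.09, Foxo1 to 1.06, Mtus1 to 0.85, C1s1 to -0.49 and Rgs2 to -0.84. No paired analysis was possible because each group has 1 array, and no array could be left out.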

Other observations

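Primary microRNA genes are on the array as well, and none of the 137 that passed the filter was past 2-fold in Snail1-KO cells in either direction. Beside the 0.999% higher and 0.308% lower of all genes, a count of 0 among 137 is near the background. In Snail1-WT cells Mir669k, at -1.23, and Mir669j, at -1.11, were past 2-fold. The highest, picked after their values were seen, were Mir23a at 4.78 untreated and 5.78 treated and Mir23b at 5.0 and 5.97, with differences of 0.99 and 0.98. In Snail1-WT cells they differed by -0.16 and 0.32, so the response of Mir23a had the opposite sign there. The smooth muscle microRNA genes Mir143 and Mir145a, which lie next to each other, differed by 0.95 and 0.89 in Snail1-KO cells and by 0.78 and 0.48 in Snail1-WT cells. The noise at such levels is larger than for brighter genes, and these probe sets measure the transcript and not the mature microRNA.

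Probe sets without a gene name here were counted as well. Of 6386 such probe sets at or above the filter level, 189 were at least 2-fold higher and 79 lower in Snail1-KO cells. In both genotypes, 22 of the 189 and 3 of the 79 were so. Among the 14014 probe sets with 1 gene at that level, 135 were higher and 41 lower, with 68 and 20 in both genotypes. Unnamed probe sets were thus past 2-fold more often, and a smaller part of them was so in both genotypes. Whether they responded to TGF-b1 was not tested. Of the 1045 probe sets that match several genes, 5 were higher and 0 lower.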
